A study of Mus musculus with 12 samples.

Results

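The genes described here encode the receptors through which serotonin, dopamine, noradrenaline, acetylcholine, histamine and adenosine act on hippocampal neurons. They were taken by symbol (Htr, Drd, Adra and Adrb, Chrm, Chrn, Hrh and Adora genes followed by their subtype) from a table of read counts per gene, with a minimum of 15 reads summed over all libraries. This left 53 genes of 58 with such symbols, among 17823 genes tested and 24079 listed. They comprised 13 serotonin, 14 nicotinic, 9 adrenergic, 5 muscarinic, 5 adenosine, 4 dopamine and 3 histamine receptor genes. The genes left out were Drd3 with 9 reads in all, Htr2b with 7, Chrna9 with 4, Hrh4 with 2 and Chrng with none, which allows Chrng a level of up to 0.00522 CPM over all libraries together. The least counted gene that was kept was Htr3b with 16 reads, and the next had 39. One of the 5 adenosine genes carries the symbol Adora3 in the table, but its Entrez identifier (69296) is that of Tmigd3 in RefSeq, and it is called Tmigd3 here. It overlaps the other Adora3 gene (Entrez 11542) on the same strand of chromosome 3, so reads of the shared exons cannot be assigned, and both are uncertain. The table's Drd1a is the gene now called Drd1.

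RNA was isolated by RiboTag from male C57BL/6J mice aged 2 to 6 months, in which a tamoxifen-inducible Cre under the Wfs1 promoter switches on Rpl22 carrying an HA tag, so that ribosomes of CA1 pyramidal cells can be immunoprecipitated with their mRNA. Wild-type libraries came from Wfs1-CreERT2:RiboTag mice and the others from Wfs1-CreERT2:RiboTag mice that also lack Fmr1 in all cells (Fmr1-/y), so both genotypes carried the Cre, the tagged ribosomal protein and the tamoxifen treatment (100 mg/kg on 3 days, tissue taken 1 week later). Each of the 6 libraries per genotype was a pool of hippocampi from 4 to 6 mice. The question was which ribosome-bound mRNAs differ when the RNA-binding protein FMRP, the product of Fmr1, is absent.

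Wild-type libraries held 39400980 to 55745464 counted reads and Fmr1-/y libraries 43106629 to 65565479. Fmr1 had 1971 to 2608 reads in wild-type libraries, 0 in 5 Fmr1-/y libraries and 1 in the other. All 8 markers of CA1 pyramidal cells were detected, with a summed level of 7735 to 9522 CPM in wild-type and 7417 to 8855 CPM in Fmr1-/y libraries. Of these 8, 3 (Wfs1, Mpped1 and Spink8) had lower means in Fmr1-/y at an unadjusted p under 0.05 in edgeR, against 3.67% of all genes. Markers of other cells were present as well. The immunoprecipitation started from the whole hippocampus, and the source of these reads was not tested. The 8 markers of choroid plexus summed to 9095 to 16100 CPM in wild-type and 10905 to 23525 CPM in Fmr1-/y libraries, and 7 astrocyte markers to 1855 to 2167 and 1992 to 2916 CPM. At an unadjusted p under 0.05, 3 of the choroid plexus and 4 of the astrocyte markers had higher means in Fmr1-/y, against 4.29% of all genes. So did 3 of 8 endothelial and mural markers and 1 of 6 striatal markers. The oligodendrocyte and mossy cell lists each had 1 lower marker, and the CA2, CA3 and dentate granule lists each had 1 lower and 1 higher. None of the markers passed after adjustment. A lower level in such RNA cannot be told apart from a smaller share of RNA from the cells that express the gene.

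Most of these receptors couple to G proteins. Receptors coupled to Gs raise cyclic AMP, those coupled to Gi/o lower it and open potassium channels, and those coupled to Gq/11 activate phospholipase C and release calcium from stores. The nicotinic acetylcholine receptors and the serotonin receptors of the Htr3 genes are instead cation channels of 5 subunits. The fibres that release serotonin, dopamine, noradrenaline, acetylcholine and histamine reach the hippocampus from small nuclei elsewhere in the brain, and adenosine arises locally from ATP.

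Adora1, which encodes the inhibitory adenosine receptor of presynaptic terminals and dendrites, and Chrm1, the main muscarinic receptor of pyramidal cells, were at the highest levels. Levels are given as CPM, the read count scaled to a common library size by TMM, and genes are compared with each other as CPM per kb of transcript. On this scale Adora1 reached 74.0 ± 3.63 CPM per kb in wild-type libraries (SD, n = 6) and Chrm1 51.7 ± 3.79, and together they made up 38.4% of the summed level of all 53 genes. The range was wide. The wild-type mean was at least 10 CPM in 18 genes, between 1 and 10 CPM in 18, between 0.1 and 1 CPM in 13 and under 0.1 CPM in 4 (Drd4, Chrnd, Chrna6 and Htr3b).

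**Figure D1:**
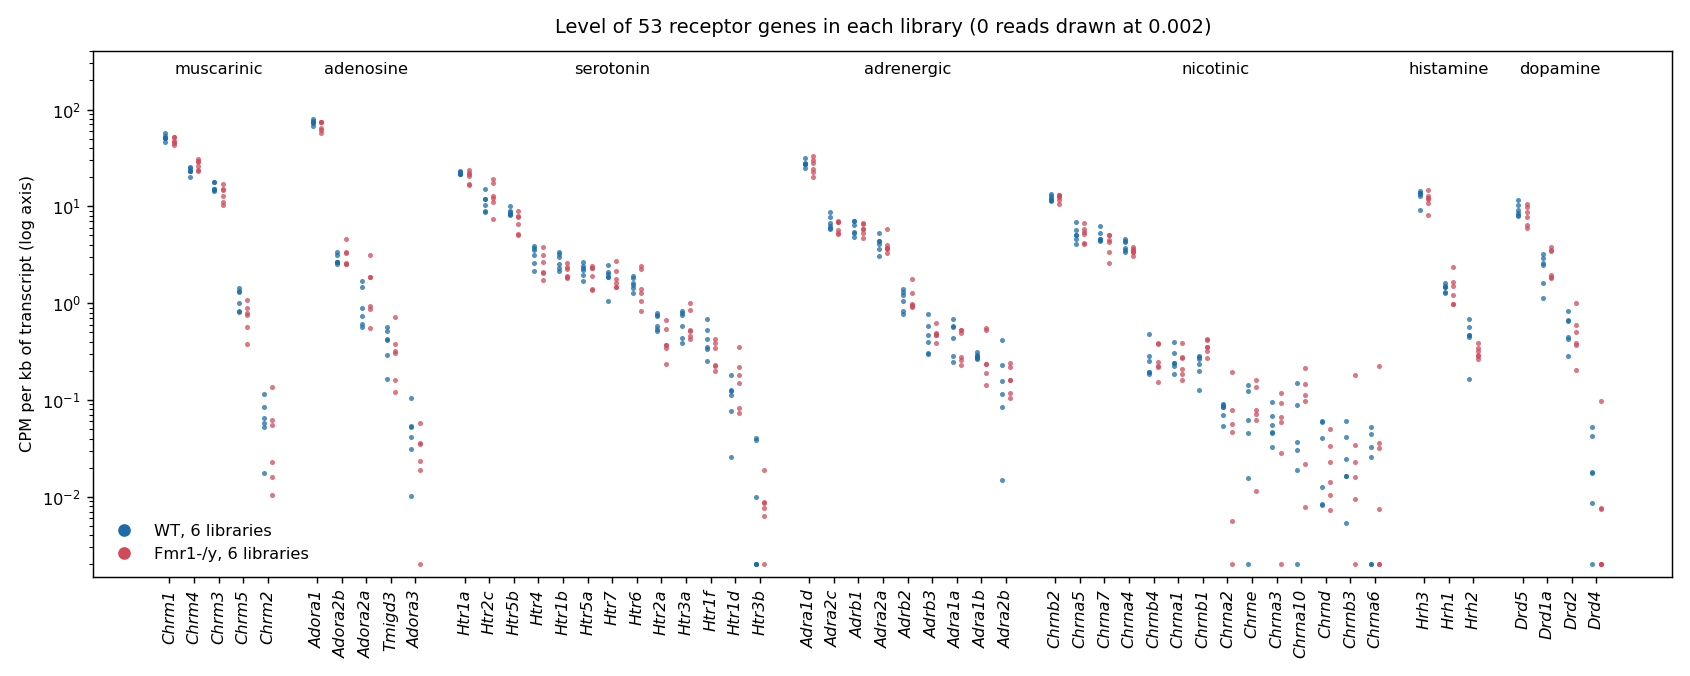
Each point is the level of 1 gene in 1 library, in CPM per kb of transcript on a log axis, with wild-type libraries in blue and Fmr1-/y libraries in red. Genes are ordered by wild-type level within their family; 18 genes had a wild-type mean of at least 10 CPM, and the points of the 2 genotypes overlap for all 53.

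The muscarinic family held 28.1% ± 1.45 of the summed level in wild-type libraries (SD, n = 6) and the adenosine family 23.9% ± 0.959. Serotonin receptors followed with 17.0% and adrenergic receptors with 14.4%, while the nicotinic, histamine and dopamine families held 8.36%, 4.52% and 3.73%. In Fmr1-/y libraries the shares were 28.7%, 23.4%, 16.9%, 14.4%, 8.5%, 4.37% and 3.70% in the same order of families, so each family mean moved by less than the SD of its wild-type share. Grouped by the pathway they use, genes of Gi/o-coupled receptors held 45.9% of the wild-type sum, Gq/11-coupled 33.7%, Gs-coupled 9.21% and ion channel subunits 8.56%. The rest belonged to Htr5b, whose coupling is not firmly known. Channel subunits were as many as the genes classed as Gi/o-coupled (16 genes each), but held a far smaller share of the level. The Gi/o class includes Tmigd3, which was placed there by its table symbol Adora3.

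The summed level of all 53 genes was 327.6 ± 7.23 CPM per kb in wild-type and 309.7 ± 21.6 CPM per kb in Fmr1-/y libraries. Fmr1-/y replicates 5, 1 and 4 were the lowest, at 284.2, 289.0 and 299.8, while the other 3 lay between 320.2 and 334.9 and the wild-type libraries between 315.8 and 333.7. Among the 18 genes of at least 10 CPM, Fmr1-/y replicates 1, 4 and 5 were the lowest of all 12 libraries for 5, 5 and 4 genes, and replicate 4 was also the highest for 3. Replicates 4 and 5, and in a further fit replicates 1, 4 and 5, were left out together, both chosen after seeing the data.

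**Figure D2:**
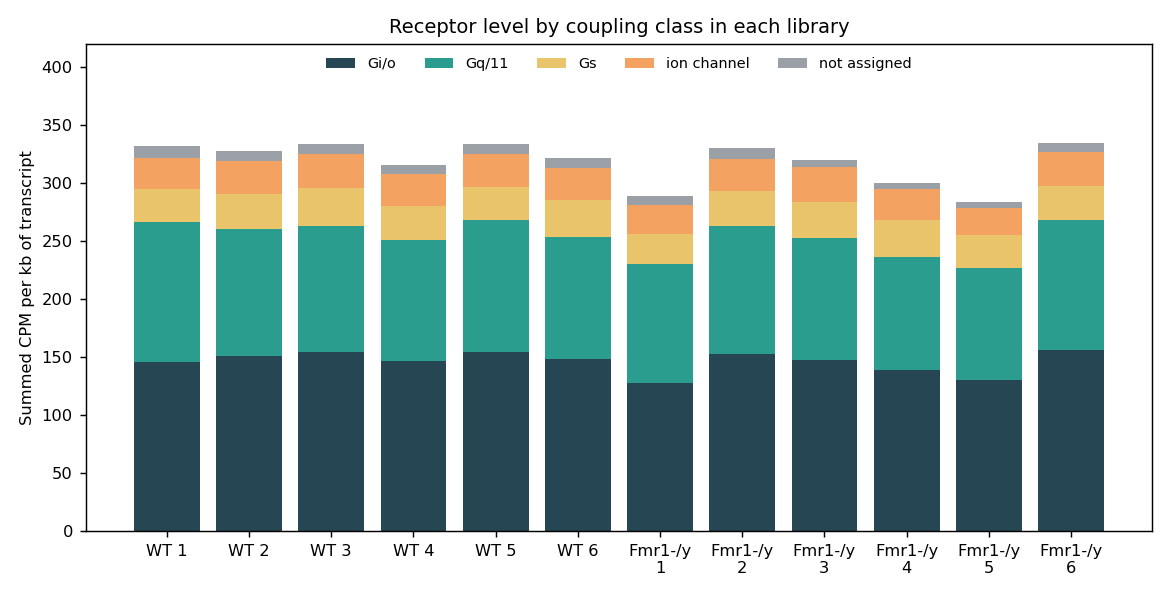
Bars give the summed level of the receptor genes in each library, in CPM per kb of transcript, split by coupling class. Wild-type sums lie between 315.8 and 333.7, and Fmr1-/y replicates 1, 4 and 5 lie below them at 284.2 to 299.8.

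No receptor gene passed the test for a difference between the genotypes. The genotypes were compared by the quasi-likelihood test of edgeR, adjusted by the method of Benjamini and Hochberg over all 17823 genes, and 0 of the 53 had an adjusted p under 0.05 (range 0.415 to 0.999), where 4 genes of all (0.0224%) passed. DESeq2's Wald test also called 0 receptor genes, with a smallest adjusted p of 0.193 for Htr2a, while it called 84 of all genes. At an unadjusted p under 0.05 in edgeR there were 7 receptor genes (13.2%, against 7.96% of all genes), of which 5 had a lower mean in Fmr1-/y (9.43%, against 3.67%) and 2 a higher mean (3.77%, against 4.29%). In no receptor gene were the libraries of the genotypes separate, which was so for 0.623% of all genes. The log2 fold change (Fmr1-/y over wild type) was below 0 in 33 of 53 genes (62.3%, against 48.6% of all genes), and its median was -0.092 against 0.0042 over all genes. Without Fmr1-/y replicates 4 and 5, 3 receptor genes (Htr2a, Chrna4 and Drd4) had an unadjusted p under 0.05 in place of 7, and so did 7.14% of all genes. Without replicates 1, 4 and 5 there were 4 (Htr2a, Chrm4, Chrm2 and Hrh1), and 4.86% of all genes. Both fits had fewer Fmr1-/y libraries, left out after their low sums were seen, so their counts are not a test of the 7 genes.

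The precision of these comparisons followed the level. For the 18 genes of at least 10 CPM the 95% interval of the log2 fold change reached 0.14 to 0.38 to either side of its value, and in 14 of them the whole interval lay within 0.5 of 0 in either direction. Over all 53 genes the interval lay within 1 of 0 in 33. The median coefficient of variation between wild-type libraries was 13.7% for genes of at least 10 CPM and 64.2% for the 17 genes under 1 CPM, and in 15 of these 17 the interval reached past 1 or -1.

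**Figure D3:**
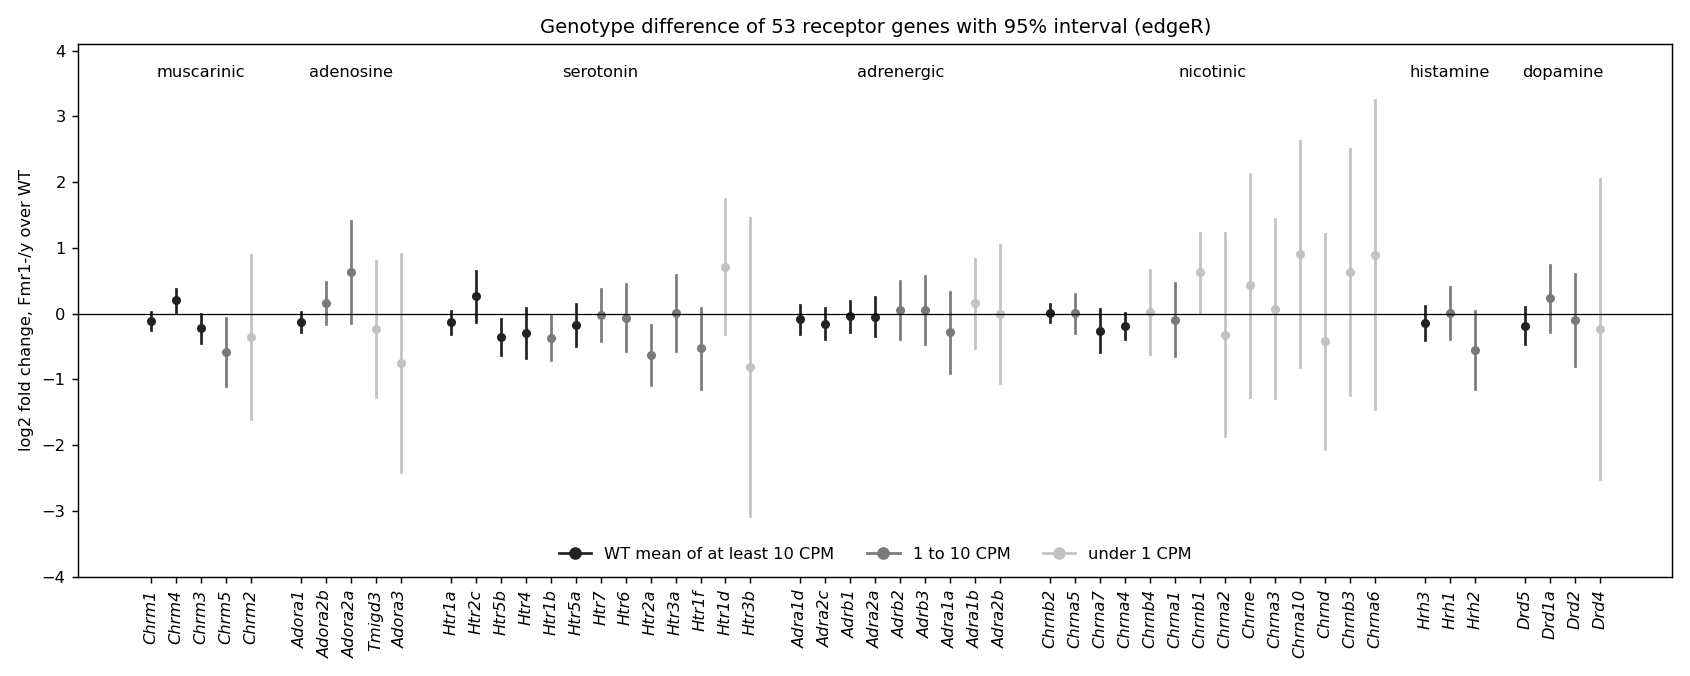
Points are log2 fold changes (Fmr1-/y over wild type) of the 53 genes from edgeR, with bars for the 95% interval, and darker shades mark higher wild-type levels. The 18 genes of at least 10 CPM have intervals no wider than 0.38 to either side, and 15 of the 17 genes under 1 CPM have intervals that reach past 1 or -1.

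Among the muscarinic receptors, Chrm1 and Chrm3, both coupled to Gq/11, had lower means in Fmr1-/y libraries, and Chrm4, which is coupled to Gi/o, had a higher one. Of all Gi/o-coupled receptor genes 14 of 16 had a log2 fold change below 0, and of the Gq/11-coupled 6 of 9, against 48.6% of all genes. The direction of Chrm4 was thus not that of most of its class. Chrm1 (chromosome 19) measured 289.8, 321.4 and 362.6 CPM as the lowest, median and highest of the wild-type libraries and 270.6, 292.6 and 329.3 CPM in Fmr1-/y. Fmr1-/y replicates 4, 1 and 5 were below every wild-type library, at 270.6, 280.9 and 289.1 CPM. Wild-type replicates 1 and 5, at 362.6 and 333.5 CPM, were above every Fmr1-/y library, and the others overlapped. The log2 fold change of Chrm1 was -0.12 (95% interval -0.26 to 0.02). For Chrm3 (chromosome 13) the lowest, median and highest were 62.8, 65.3 and 77.8 CPM in wild type against 45.0, 60.2 and 73.2 CPM in Fmr1-/y. Fmr1-/y replicates 4 and 5, at 45.0 and 48.4 CPM, were the lowest, and the log2 fold change of -0.23 ± 0.11 (SE, unadjusted p = 0.049, adjusted p = 0.63 in edgeR) was -0.085 without them. The Chrm4 libraries (chromosome 2) lay at 28.9, 33.5 and 36.7 CPM in wild type and 33.5, 39.2 and 43.9 CPM in Fmr1-/y. The lowest was wild-type replicate 4, and 4 of the 6 Fmr1-/y libraries were above every wild-type library. The log2 fold change of Chrm4 was 0.21 ± 0.08 (SE, unadjusted p = 0.024, adjusted p = 0.531 in edgeR).

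Chrm5, which is best known from midbrain dopamine neurons, was low, at 1.30, 1.83 and 2.30 CPM in wild-type and 0.609, 1.24 and 1.70 CPM in Fmr1-/y libraries. Its log2 fold change was -0.59 ± 0.25 (SE, unadjusted p = 0.030, adjusted p = 0.554 in edgeR), with 3 wild-type libraries above all Fmr1-/y libraries and the others among them. Chrm2, the muscarinic receptor of cholinergic terminals, had 198 reads in all and a wild-type mean of 0.371 CPM.

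The serotonin receptors were led by Htr1a, Htr2c and Htr5b, at 22.3, 11.1 and 8.79 CPM per kb in wild type. Per kb of all exons, in place of the longest transcript, Htr5b (8.79) came before Htr2c (5.65). Htr1a, an inhibitory receptor of pyramidal cell bodies and dendrites (chromosome 13), measured 95.7, 99.96 and 104.4 CPM in wild-type libraries, with the smallest coefficient of variation of the family (3.75%). The Fmr1-/y libraries were more spread, at 74.0, 94.8 and 106.9 CPM, with a log2 fold change of -0.13 (95% interval -0.31 to 0.04) that was -0.012 without replicates 4 and 5 and 0.019 without replicates 1, 4 and 5.

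Htr2a, the cortical serotonin receptor coupled to Gq/11 (chromosome 14 from 74640874 to 74706859 on GRCm38), had the smallest p of all receptor genes. It measured 2.90, 3.69 and 4.43 CPM in wild-type and 1.33, 2.07 and 3.72 CPM in Fmr1-/y libraries. Fmr1-/y replicates 3 and 4, at 3.72 and 3.02 CPM, lay among the wild-type libraries, and the other 4 were below every wild-type one. The mean was 64.6% of wild type (3.66 ± 0.657 against 2.36 ± 0.859 CPM, SD, n = 6 each), with a log2 fold change of -0.64 ± 0.22 (SE, unadjusted p = 0.0091, adjusted p = 0.415 in edgeR). Over all alternatives its log2 fold change stayed between -0.81 and -0.51 and its adjusted p between 0.193 and 0.999.

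Htr5b, a serotonin receptor that is a pseudogene in humans (chromosome 1 from 121509758 to 121529312), measured 15.7, 16.6 and 19.7 CPM in wild-type and 9.88, 13.7 and 17.5 CPM in Fmr1-/y libraries. Fmr1-/y replicates 4 and 5 were the lowest at 9.88 and 9.95 CPM, and Fmr1-/y replicate 2 lay within the wild-type range. The log2 fold change was -0.35 ± 0.13 (SE, unadjusted p = 0.015, adjusted p = 0.476 in edgeR), and without these 2 replicates it was -0.18. Htr5b varied with the CA1 markers over the 12 libraries (Pearson's r = 0.81 on the log2 scale, permutation p = 0.0011, adjusted p = 0.0021 over 4 such relations; Spearman's rho = 0.72, permutation p = 0.010, adjusted p = 0.014). Pearson's r was 0.60 without the 2 libraries whose marker level was farthest from the median. It was 0.91 within wild type (exact permutation p = 0.028, two-sided, n = 6). Within Fmr1-/y it was 0.74 and did not pass (exact permutation p = 0.092, two-sided, n = 6). The relations between a receptor and a marker list were chosen after their values were seen, and the part of the markers in the genotype difference was not tested.

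Htr2c (chromosome X), the serotonin receptor known for its high level in choroid plexus, measured 41.4, 52.5 and 71.1 CPM in wild-type and 35.5, 58.7 and 91.6 CPM in Fmr1-/y libraries. Its log2 fold change was 0.26 (95% interval -0.12 to 0.65), and -0.12 without Fmr1-/y replicates 1, 4 and 5. Fmr1-/y replicates 4 and 1 were the highest, at 91.6 and 82.1 CPM, and the same 2 libraries had the highest choroid plexus sums, at 19335 and 23525 CPM. Over the 12 libraries Pearson's r between Htr2c and the mean log2 level of 8 choroid plexus markers was 0.89 (permutation p = 0.0002, adjusted p = 0.00080), with a Spearman's rho of 0.89 (permutation p = 0.00018, adjusted p = 0.00072). It was 0.93 without the 2 libraries farthest from the median marker level, 0.89 within wild type (exact permutation p = 0.031, two-sided, n = 6) and 0.92 within Fmr1-/y (exact permutation p = 0.025, two-sided, n = 6). The share of the Htr2c reads that came from choroid plexus was not tested.

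**Figure D4:**
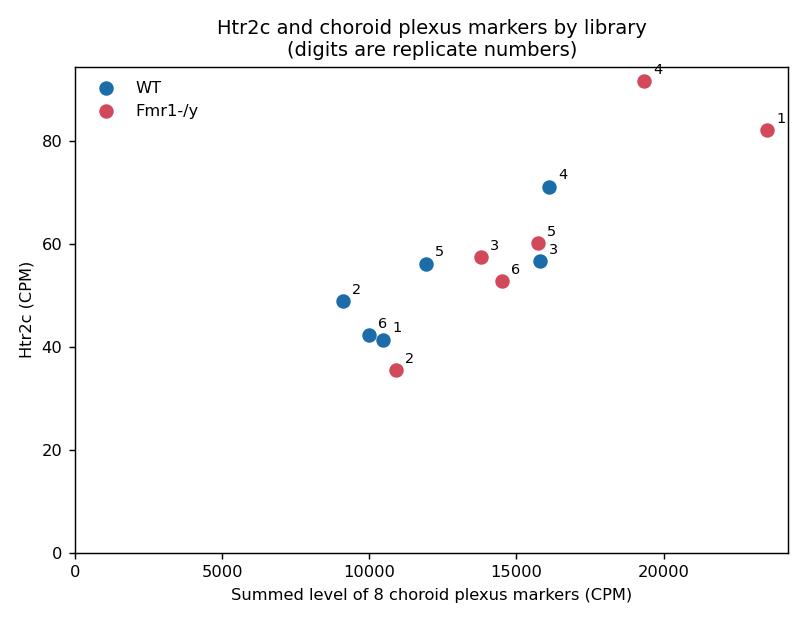
Each point is 1 library, with the summed level of 8 choroid plexus markers on the x axis and the level of Htr2c on the y axis, both in CPM. The libraries of both genotypes rise together, from 35.5 to 91.6 CPM of Htr2c.

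Htr1b, an autoreceptor and heteroreceptor of axon terminals coupled to Gi/o, measured 2.71, 3.50 and 4.31 CPM in wild-type and 2.31, 2.67 and 3.27 CPM in Fmr1-/y libraries. Of its wild-type libraries 3 were within the Fmr1-/y range, and the log2 fold change was -0.37 ± 0.16 (SE, unadjusted p = 0.031, adjusted p = 0.561 in edgeR). Of the 13 serotonin receptor genes, 10 had a log2 fold change below 0, against 48.6% of all genes, and the median was -0.17. The others, among them the Gs-coupled Htr4, Htr6 and Htr7, had wild-type means between 0.0359 CPM (Htr3b) and 14.8 CPM (Htr4). Htr3a and Htr3b, the channel subunits, lie close together on chromosome 9 and had 755 and 16 reads in all.

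**Figure D5:**
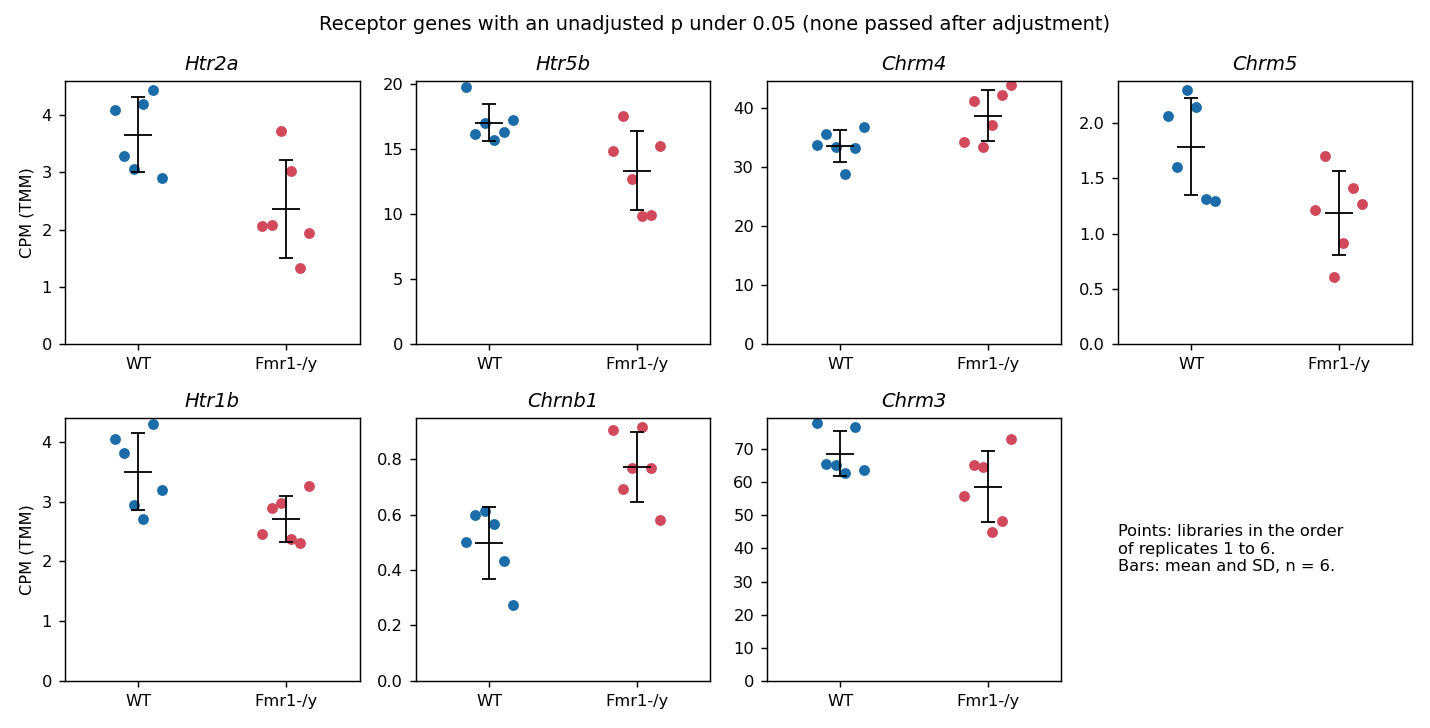
Points are the levels in CPM of the 7 receptor genes with an unadjusted p under 0.05 in each library, in order of replicate number, with the mean and SD (n = 6 per genotype). The genotypes overlap in each gene, and none has an adjusted p under 0.415.

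Of the adrenergic receptors, which bind noradrenaline and adrenaline, Adra1d led at 27.8 CPM per kb, followed by Adra2c at 6.85 and Adrb1 at 6.00. Adra1d, coupled to Gq/11 (chromosome 2), measured 47.2, 52.0 and 60.5 CPM in wild-type and 37.9, 49.4 and 62.1 CPM in Fmr1-/y libraries. The Fmr1-/y libraries enclosed the whole wild-type range, and the log2 fold change of -0.083 (95% interval -0.30 to 0.14) was 0.048 without Fmr1-/y replicates 4 and 5. Adra2c, a Gi/o-coupled receptor also found on noradrenergic terminals, and Adrb1, the Gs-coupled beta receptor, had log2 fold changes of -0.15 (-0.39 to 0.09) and -0.042 (-0.28 to 0.20). None of the 9 adrenergic genes had an unadjusted p under 0.05 in edgeR, against 7.96% of all genes. A log2 fold change below 0 was found in 6 of them, against 48.6% of all genes. Adra1d stood far above the other alpha1 receptors, with 52.8 CPM against 1.93 for Adra1a and 0.942 for Adra1b, or 27.8 against 0.466 and 0.283 CPM per kb.

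The dopamine receptors were led by Drd5, a Gs-coupled receptor of hippocampal pyramidal cells (chromosome 5), at 9.32 CPM per kb against 2.33 for Drd1a and 0.551 for Drd2. Drd5 measured 25.0, 28.2 and 36.5 CPM in wild-type and 19.0, 26.0 and 33.0 CPM in Fmr1-/y libraries (log2 fold change -0.18, 95% interval -0.46 to 0.10). Fmr1-/y replicates 4, 5 and 1 were below every wild-type library, at 19.0, 20.3 and 24.3 CPM. Wild-type replicate 1 was above every Fmr1-/y library, and the others overlapped. Drd1a, the Gs-coupled receptor typical of striatal projection neurons, ranged from 4.02 to 11.2 CPM in wild type and from 6.46 to 13.3 CPM in Fmr1-/y (log2 fold change 0.23, or -0.019 without Fmr1-/y replicates 4 and 5). Drd2, a Gi/o-coupled receptor that in the hippocampus marks mossy cells of the hilus, had a log2 fold change of -0.10 (-0.80 to 0.60).

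Ppp1r1b, Rgs9 and Pde10a are 3 of the 6 listed markers of striatal neurons, and are not receptors. They summed to 201.3 to 233.4 CPM in wild-type libraries and to 202.6 to 287.9 CPM in Fmr1-/y libraries. Drd1a had a Pearson's r with their mean log2 level of 0.45 (permutation p = 0.13, adjusted p = 0.13) and a Spearman's rho of 0.56 (permutation p = 0.063, adjusted p = 0.063). It was 0.51 without the 2 libraries farthest from the median, -0.13 within wild type (exact permutation p = 0.90, n = 6) and 0.80 within Fmr1-/y (exact permutation p = 0.067, n = 6). Adora2a, the Gs-coupled adenosine receptor of striatal neurons, had r = 0.65 (permutation p = 0.024, adjusted p = 0.033) and rho = 0.73 (permutation p = 0.010, adjusted p = 0.014), with r = 0.65 without the same 2 libraries, 0.35 within wild type (exact permutation p = 0.52, n = 6) and 0.72 within Fmr1-/y (exact permutation p = 0.11, n = 6). Neither relation passed the test within a genotype. Fmr1-/y replicate 5 had the highest level of both receptors, at 13.3 CPM of Drd1a and 8.11 CPM of Adora2a. Whether these 3 markers follow the amount of striatal RNA was not tested, nor was the part of such RNA in either receptor's difference.

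Adora1 (chromosome 1 from 134199215 to 134235457) measured 339.4, 367.1 and 394.0 CPM in wild-type and 283.7, 343.0 and 372.7 CPM in Fmr1-/y libraries. Fmr1-/y replicates 5, 1 and 4 were below every wild-type library, at 283.7, 306.1 and 320.6 CPM, and the others lay within the wild-type range. The log2 fold change was -0.13 (95% interval -0.28 to 0.02), -0.058 without replicates 4 and 5, and 0.0048 without replicates 1, 4 and 5. Adora2b and Adora2a, both Gs-coupled, were far lower, at 2.83 and 0.993 CPM per kb, with log2 fold changes of 0.16 (-0.16 to 0.48) and 0.63 (-0.15 to 1.40). The latter was 0.076 without Fmr1-/y replicates 4 and 5. Adora3 and Tmigd3, whose exons overlap, had 50 and 188 reads in all.

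Hrh3, the Gi/o-coupled histamine receptor that restrains transmitter release (chromosome 2), was the highest of its family at 12.9 CPM per kb, against 1.44 for the Gq/11-coupled Hrh1 and 0.467 for the Gs-coupled Hrh2. Hrh3 measured 25.1, 36.7 and 39.2 CPM in wild-type and 22.0, 32.3 and 39.5 CPM in Fmr1-/y libraries, where the lowest value in wild type stood apart from the other 5. The log2 fold changes were -0.14 (-0.40 to 0.12) for Hrh3, 0.0085 (-0.38 to 0.40) for Hrh1 and -0.56 (-1.15 to 0.03) for Hrh2. Without Fmr1-/y replicates 4 and 5 that of Hrh1 turned to -0.30.

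Nicotinic receptors are built from 5 subunits, and the subunits of the main brain forms were the ones detected at higher levels. Chrnb2, the beta subunit of most brain receptors (chromosome 3), measured 71.9, 76.7 and 85.3 CPM in wild-type and 67.6, 80.6 and 83.2 CPM in Fmr1-/y libraries, with means of 77.8 ± 4.88 and 78.1 ± 6.25 CPM (SD, n = 6 each). Its log2 fold change was 0.0048 with a 95% interval of -0.13 to 0.14. On the scale per kb Chrnb2 was at 12.2, followed by Chrna5 at 5.21, Chrna7, which forms receptors alone, at 4.94, and Chrna4, the usual partner of Chrnb2, at 3.97. This order depended on the length used, since per kb of all exons Chrna4 (3.61) came before Chrna5 (3.13) and Chrna7 (2.28). The log2 fold changes of Chrna5, Chrna7 and Chrna4 were 0.0022 (-0.30 to 0.30), -0.26 (-0.58 to 0.06) and -0.19 (-0.39 to 0.0027).

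Subunit genes that are neighbours in the genome had unequal levels. Chrna5, Chrna3 and Chrnb4 lie together on chromosome 9, between positions 54980827 and 55048953 on GRCm38, and had wild-type means of 9.79, 0.250 and 0.991 CPM, or 5.21, 0.0573 and 0.266 CPM per kb. Chrnb1, a subunit of the muscle receptor (chromosome 11), measured 0.275, 0.534 and 0.614 CPM in wild-type and 0.581, 0.767 and 0.917 CPM in Fmr1-/y libraries. Of the 6 Fmr1-/y libraries, 5 were above every wild-type library, and the log2 fold change was 0.63 ± 0.29 (SE, unadjusted p = 0.042, adjusted p = 0.608 in edgeR). Chrnb1 had 373 reads in all 12 libraries. The other muscle subunits in the table, Chrna1, Chrnd and Chrne, had 645, 45 and 69 reads, and their log2 fold changes of -0.09, -0.42 and 0.43 had intervals that included 0.

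The genes that make, remove or relay these transmitters were tested in the same fit. Of 67 listed genes 66 were tested (Slc18a3 was not), and 0 had an adjusted p under 0.05 in edgeR, against 0.0224% of all genes. At an unadjusted p under 0.05 there were 9, against 7.96% of all genes, of which 4 had a lower and 5 a higher mean in Fmr1-/y, and the median log2 fold change was 0.0082. None of the 13 genes of G protein alpha subunits was among them, while 5 of 30 genes of synthesis, uptake and breakdown, 2 of 13 of receptor kinases, arrestins and scaffolds and 2 of 10 of nicotinic chaperones and Ly6 proteins were.

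The smallest p of these belonged to 2 enzymes that clear adenosine and acetylcholine. The wild-type libraries of Adk, adenosine kinase, lay between 25.3 and 31.4 CPM and those of Fmr1-/y between 30.8 and 37.9 CPM, with means of 28.5 and 35.2 CPM (log2 fold change 0.31 ± 0.081 SE, adjusted p = 0.288 in edgeR). Ache, acetylcholinesterase, ranged from 31.1 to 33.6 CPM in wild type and from 22.3 to 30.3 CPM in Fmr1-/y, the only one of the 66 in which the genotypes did not overlap, against 0.623% of all genes (log2 fold change -0.28 ± 0.079 SE, adjusted p = 0.313 in edgeR). Both kept their direction in all the alternatives, with adjusted p between 0.054 and 0.954 for Adk and between 0.096 and 0.924 for Ache. Adk is also known from astrocytes, whose 7 markers had a higher median sum in Fmr1-/y (2387 against 2107 CPM), and the part of astrocyte RNA was not tested.

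Lynx1, a membrane-anchored protein that restrains nicotinic receptors, had a mean of 422.2 CPM in wild type against 353.4 CPM in Fmr1-/y (log2 fold change -0.26, adjusted p = 0.332 in edgeR), and the related Lypd6b 2.01 and 2.81 CPM (0.49, adjusted p = 0.493). Ppp1r1b, which encodes the dopamine-regulated phosphatase inhibitor DARPP-32, measured 136.6 and 164.2 CPM (log2 fold change 0.27, adjusted p = 0.499 in edgeR). It is abundant in striatal projection neurons as well, where Rgs9 (17.8 and 19.1 CPM) and Pde10a (64.3 and 61.9 CPM) are also known, and the part of striatal RNA was not tested.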

How the data were processed

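Libraries of polyadenylated, strand-specific RNA were aligned by the authors to mm10 with TopHat2 2.1.1 and Bowtie2 2.2.8 and counted with HTSeq 0.6.1p1 in union mode on the opposite strand, and they deposited unnormalized read counts per gene. Here genes with at least 15 reads summed over 12 libraries were kept, as in the study. Counts were scaled by TMM and tested with edgeR 4.0.16 (quasi-likelihood, genotype only) in R 4.3.3, with Benjamini-Hochberg adjustment over all 17823 genes and a threshold of 0.05. Standard errors (SE) were obtained as |log2 fold change| over the root of the F statistic. Replicates are pools of different mice.

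Levels per kb used the longest GENCODE transcript with a RefSeq match, taken by Entrez identifier, or the longest transcript of the gene where none had such a match. A length was found for all 53 receptor genes, and the union of exons was the alternative. Correlations used log2(CPM + 0.1) and two-sided permutation tests. They were adjusted over 4 relations; 1 listed striatal marker is not reported here. Coordinates are those of RefSeq on GRCm38, the mm10 build. The depth of 39400980 to 65565479 reads per library sets the counting error, and the limit given for Chrng (3 reads) covers that error only. Alternatives were other size factors, DESeq2 1.42.0, limma 3.58.1 voom, 3 other filters, a replicate block, a threshold of 0.1 and each library left out.

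The genes named with values are the 3 highest of each family, those with an unadjusted p under 0.05 and the 5 partner genes with the smallest p; others were chosen after their values were seen. The receptor genes, the partner and marker lists and the tests were chosen with earlier results of these data known. Coupling classes follow textbook assignments, except that Tmigd3 was classed as Adora3 by its table symbol. Sequencing lanes of the libraries are not given in the sources used here.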

Additional observations from a re-analysis of the deposited data

Results flagged for a closer look

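In 8 of 116 groups of 6 libraries, 1 library stood apart from the other 5 by Dixon's criterion, where chance gives about 5.8. The groups came from 58 genes in 2 genotypes. These were receptor and partner genes, and not the 58 genes with receptor symbols counted at the start. Adra2a was at 20.8 CPM in Fmr1-/y replicate 4 and between 11.8 and 14.2 CPM in the other 5. Hrh3 was at 25.1 CPM in wild-type replicate 1 (others 34.3 to 39.2), and Htr5b at 19.7 CPM in the same library (others 15.7 to 17.2). Ppp1r1b was at 113.7 CPM in wild-type replicate 2 (others 134.7 to 145.0), and Chrnb4 at 1.80 CPM in wild-type replicate 6 (others 0.695 to 1.06). Drd4 was at 0.276 CPM in Fmr1-/y replicate 5, against at most 0.0215 CPM in the other Fmr1-/y libraries.

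Chrnb3 and Chrna6, subunit genes that lie side by side on chromosome 8 (27368711 to 27413944 on GRCm38), both stood apart in Fmr1-/y replicate 3. Chrnb3 was at 0.835 CPM there and at 0 to 0.159 CPM in the other 5, and Chrna6 at 0.654 CPM against 0 to 0.104 CPM.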

How the results depend on the processing

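Receptor genes and partner genes called stayed at 0 in all 23 alternatives, and the median log2 fold change of the receptor genes stayed between -0.15 and -0.025. Genes called among all genes tested were 4, and 84 with DESeq2's Wald test, 1 with at least 10 reads in every library (a filter that removes Fmr1), 2 to 6 with 1 library left out, 2 without Fmr1-/y replicates 4 and 5 and 1 without replicates 1, 4 and 5, the last 2 fits chosen after seeing the data. Deviations of same-numbered libraries correlated by 0.025 on average over all genes (-0.081 to 0.090, with 0 of 6 pairs over 0.1), by 0.099 over genes above a mean log2 CPM of 1 (-0.24 to 0.35, 3 pairs over 0.1) and by 0.15 above 5 (-0.44 to 0.60, 3 pairs), so not every pair was over 0.1 and the libraries were not taken as paired. The replicate block called 4 genes and 0 receptor genes. Under the block Hrh1 turned to -0.055. Log2 fold changes reversed in voom for Chrna5 (-0.023) and Hrh1 (-0.048), and without replicates 4 and 5 for Adra1d (0.048), Drd1a (-0.019) and Hrh1 (-0.30). Without replicates 1, 4 and 5 they reversed for Adora1 (0.0048), Adora2b (-0.0033), Adra1d (0.12), Adra2c (0.022), Drd5 (0.055), Hrh1 (-0.44), Htr1a (0.019) and Htr2c (-0.12). Not all of these were near 0 in the main fit, where Htr2c was at 0.26, Drd1a at 0.23 and Drd5 at -0.18. With 1 library left out the log2 fold changes ran from -0.084 to 0.098 for Chrna5, -0.017 to 0.043 for Chrnb2, -0.18 to 0.099 for Hrh1, -0.097 to 0.011 for Adrb1 and -0.41 to 0.061 for Drd2. The cause was not tested. Per kb of all exons in place of the longest transcript, the nicotinic share was 6.69% and the muscarinic 29.5%, and Adora1 was at 63.5, Htr2c at 5.65 and Chrna7 at 2.28 CPM per kb in wild type. Levels per kb depend on the transcript assumed, and low genes on few reads.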
